A study of Mus musculus with 16 samples.

Results

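The comparison described here is that of MCT4-KO with control leukemia cells at 20% oxygen, the oxygen level of room air. It rests on 8 of the 16 RNA libraries of the series, the 4 labelled MCT4-KO and the 4 labelled control among those cultured at 20% oxygen, chosen by their labels alone. All libraries come from a mouse acute myeloid leukemia line that carries MLL-AF9, the fusion oncogene in which MLL is joined to AF9, and which keeps blood progenitors dividing. Both genotypes were grown in RPMI with serum, interleukin 3 and stem cell factor, and in both Cas9 was switched on with 4-OHT, so the controls also carry induced Cas9, together with a guide RNA that has no target. MCT4-KO cells carry a guide against MCT4, the product of Slc16a3. The 8 remaining libraries are the same genotypes at 2% oxygen, used here to estimate the spread and to test where the knockout effect differed from that at 20%. Whether either population is 1 clone is not given in the sources used here.

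MCT4 is a plasma membrane carrier that moves lactate out of the cell together with a proton, and needs the chaperone basigin to reach the surface. Myeloid cells make their granules in sequence: promyelocytes fill the primary granules with myeloperoxidase and serine proteases, later stages make secondary and tertiary granules, and monocytes take a separate branch. MLL fusions hold cells near the promyelocyte or earlier by keeping Hoxa genes and Meis1 on, so surface receptors, granule genes and fusion targets are the usual readouts of where such cells stand.

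Total estimated counts were 21192179 to 25281670 per library at 20% oxygen, and 13774 genes were tested. Every pair of libraries within a group differed by more than sampling noise, with a chi-square per gene from 2.47 to 8.95. The first principal component of the 8 libraries held 25.2% of the variance and separated the genotypes. The next components held 15.1% and 13.8%. All 14 genes fixed as marks of the leukemia were above 1 CPM, and other cells' markers were partly present. Of 14 T-cell genes 3 were at 0 in all 8 libraries (Cd3e, Cd4 and Cd2), and 3 were above 1 CPM (Lck, Bcl11b and Thy1). Of 12 B-cell genes 3 were at 0, Pax5 and Ebf1 among them, and Ighm was above 1 CPM, with a summed level of 33.3 to 35.8 CPM in control and 35.1 to 37.1 CPM in MCT4-KO libraries. Of 10 natural killer genes 5 were at 0 (Ncr1, Klrb1c, Gzma, Gzmb and Eomes), and Prf1 and Nkg7 were above 1 CPM. Whether replicates of 1 group were grown separately is not stated in the labels. The p-values therefore cover only the spread from library to library, and that may be technical.

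Levels are CPM (counts scaled to a common library size by TMM, mean ± SD, n = 4 libraries per group, single libraries in the order of their replicate numbers). Changes are log2 fold changes of MCT4-KO over control ± SE. A gene is called, and said to rise or fall, where edgeR's quasi-likelihood test gave a Benjamini-Hochberg adjusted p under 0.05 over all tested genes. A call is said to be held where it also passed, with the same sign, in each of the 8 fits that left out 1 library, with limma-voom, with DESeq2 and in a fit of the 8 libraries alone. Most genes given with values were chosen among held calls whose groups did not overlap. For those genes the separation of the groups was a condition of the choice and is no further support.

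The targeted gene Slc16a3 (ENSMUSG00000025161, chromosome 11, 120948480 to 120960868, plus strand, GRCm38) read 235, 199, 184 and 222 CPM in the control libraries and 70.4, 72.4, 82.1 and 94.7 CPM in the MCT4-KO libraries. Every MCT4-KO library lay below every control library, at 38.1% of the control mean. The change was -1.39 ± 0.076 (edgeR adjusted p = 5.10e-10), and p was 0.0286 in a two-sided exact permutation test over the 8 libraries, the smallest that 70 splits allow. Reads from an edited gene are counted like others, so this level is no measure of the protein left. Of the 5 tested genes nearest to Slc16a3 on each side (Csnk1d, Ogfod3, Hexdc, Cybc1 and Narf; Ccdc57, Fasn, Dus1l, Gps1 and Rfng), 1 was called. It was Narf (-0.19 ± 0.047, edgeR adjusted p = 0.0125), whose groups overlapped and whose call was lost without control replicate 1 or MCT4-KO replicate 2. The chaperone gene Bsg changed by -0.02 ± 0.045 and the MCT1 gene Slc16a1 by -0.10 ± 0.038, neither called (edgeR adjusted p = 0.844 and 0.104); Slc16a1 was called only without control replicate 4. Of 22 tested genes that regulate intracellular pH, Slc16a3 and the proton channel gene Hvcn1, which lies outside the rule for named genes, fell (9.09%, against 9.76% of all tested genes). The Hvcn1 call was lost without control replicate 2 or MCT4-KO replicate 4.

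Over all genes, 1344 of 13774 (9.76%) were called, 683 higher (4.96%) and 661 lower (4.80%), and 667 calls (4.84%) were held, 361 higher and 306 lower. Groups of 4 libraries did not overlap for 2007 genes (14.6%). The changes were small: called changes had a median size of 0.23, and 67 called genes changed at least 2-fold. Of the called genes 1266 were protein-coding and 78 were not. The share called was 2.90% of genes at or below 1 CPM, 9.92% between 1 and 10 CPM, 10.8% between 10 and 100 CPM and 12.7% above. Without MCT4-KO replicate 2 the count fell to 483 higher and 412 lower genes. Scaling by library size in place of TMM called 860 higher and 572 lower genes (60.1% against 50.8% higher) and moved the median of all genes from -0.0051 to 0.0075.

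Gene lists in 3 groups were read against that background: receptors and other surface or secreted products (469 tested genes in 16 lists), signalling (576 in 12 lists) and differentiation (269 in 9 lists). The lists and their members were chosen with earlier results of these data known, and no list was tested as a set. The part of that choice in the shares was not tested. Among surface genes 61 rose and 44 fell (22.4% called), among signalling genes 47 and 33 (13.9%), and among differentiation genes 47 and 33 (29.7%). With genes above 10 CPM only, the shares were 29.2%, 15.4% and 32.9%, against 11.3% of all tested genes above 10 CPM. The median change was 0.0096 in surface, 0.0088 in signalling and 0.0016 in differentiation genes. Counts of called members in each list below stand against 9.76% of all tested genes called, 4.96% higher and 4.80% lower.

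**Figure D1:**
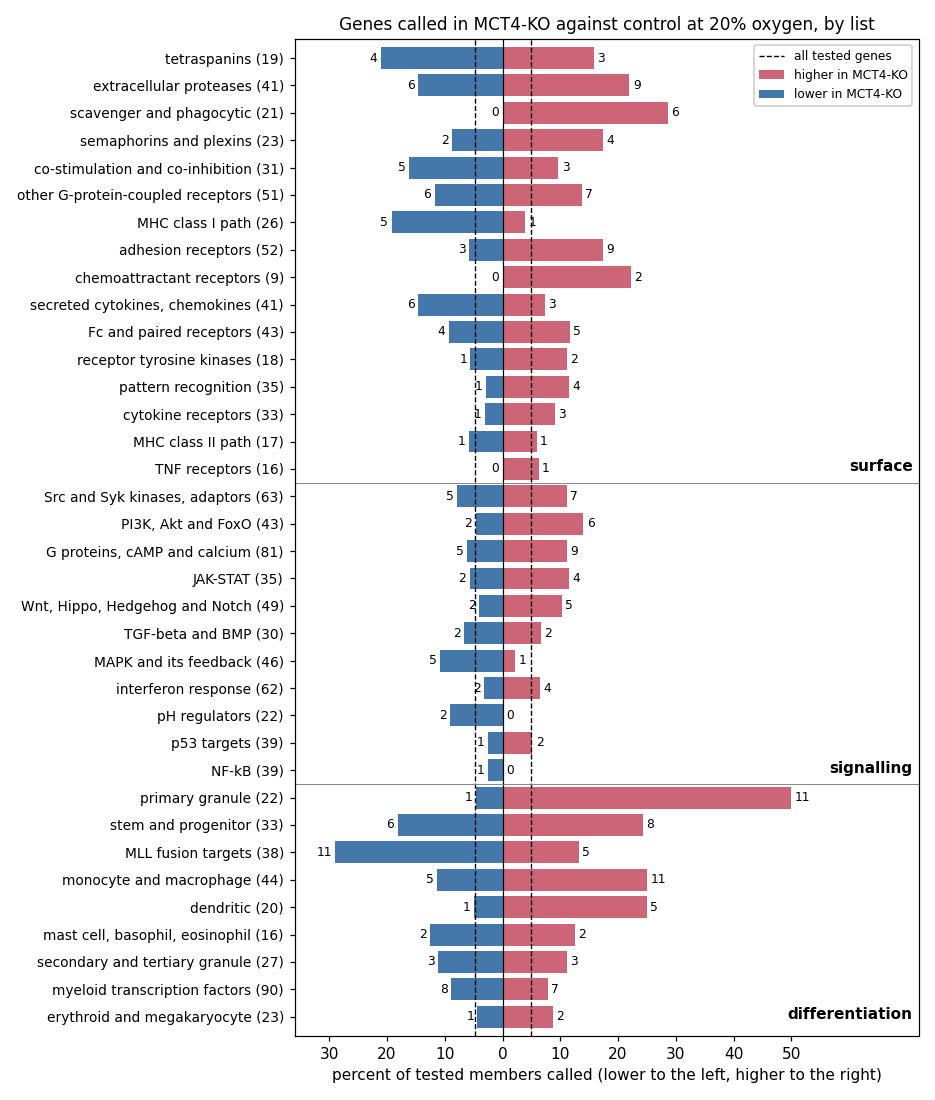
Percent of tested members called higher (right) and lower (left) in MCT4-KO against control at 20% oxygen by list (1 signalling list is not shown), with the number of tested members in brackets, the number called beside each bar, and dashed lines at 4.96% and 4.80%, the shares over all tested genes. Primary granule genes reach 50% to the right, and targets of the MLL fusion reach furthest to the left with 11 genes. List members were chosen with earlier results of these data known.

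Primary granule genes had the largest share of called members among these lists, with 11 of 22 tested genes higher and 1 lower (54.5%). All 11 rises were held. Mpo, for myeloperoxidase (ENSMUSG00000009350, chromosome 11, 87793581 to 87804413, plus strand, GRCm38), read 127, 138, 129.6 and 159 CPM in the control libraries and 275, 316, 345 and 302 CPM in the MCT4-KO libraries, and its groups stood far apart. Its change of 1.16 ± 0.075 was the largest rise among held genes of at least 5 CPM, predicted genes left out (edgeR adjusted p = 5.42e-09). In bulk RNA a larger share of cells with granules and more RNA per cell cannot be told apart.

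Elane (ENSMUSG00000020125, chromosome 10, 79886247 to 79888215, plus strand, GRCm38) encodes neutrophil elastase and read 689.7, 711, 647 and 723 CPM in control against 748, 809, 891 and 856 CPM in MCT4-KO. Prtn3 (ENSMUSG00000057729, chromosome 10, 79874476 to 79883174, plus strand, GRCm38), for proteinase 3, lies beside it and read 408, 426, 374 and 416 CPM in control against 433, 465, 522 and 499 CPM in MCT4-KO. Neither gene's groups overlapped, but the lowest MCT4-KO library of each, replicate 1, was close to the highest control. The changes were 0.25 ± 0.046 and 0.24 ± 0.048 (edgeR adjusted p = 0.00133 and 0.00263). The exons of Prtn3 overlap those of Plppr3, and with the strand setting of the counting not given, reads of both cannot be told apart. The member that fell was Ctsg, for cathepsin G (ENSMUSG00000040314, chromosome 14, 56099881 to 56102574, minus strand, GRCm38), a gene that lies outside the rule for named genes and was chosen after its values were seen. It read 1350.2, 1388, 1202 and 1193 CPM in control against 1123, 1143, 1122 and 1209 CPM in MCT4-KO, so 1 MCT4-KO library lay above 2 controls. Its call (-0.16 ± 0.045, edgeR adjusted p = 0.0299) was lost in 5 of the 8 fits leaving out 1 library (control replicate 1 or 2, MCT4-KO replicate 1, 2 or 3) and in the fit of the 8 libraries alone.

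The stretches before the starts of these serine protease genes and of Slc16a3 are shown so that the letters a myeloid factor could meet there can be read. The proteases were chosen because Elane and Prtn3 were called higher and Ctsg lower, although the Ctsg call was not held. PU.1, RUNX1 and C/EBP factors are the textbook activators of granule genes. Each runs from 250 bases before the RefSeq start (GRCm38.p6) to the first base that GENCODE places in an exon of the gene, read 5′ to 3′ on the gene's strand. Capitals mark matches, on either strand, to the PU.1 core GAGGAA, the RUNX core TGTGGT or the C/EBP form TTNNGNAA. The windows are chr10:79886062-79886246 (plus strand) for Elane, chr10:79879417-79879613 (plus) for Prtn3, chr14:56102575-56102824 (minus) for Ctsg and chr11:120948817-120949052 (plus) for Slc16a3. Longer GENCODE models of Prtn3 and Slc16a3 begin further upstream, so these 2 windows also lie within the annotated gene.
Elane: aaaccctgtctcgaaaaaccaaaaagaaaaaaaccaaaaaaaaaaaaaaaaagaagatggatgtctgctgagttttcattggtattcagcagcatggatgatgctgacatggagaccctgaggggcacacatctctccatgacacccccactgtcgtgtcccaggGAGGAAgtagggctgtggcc
Prtn3: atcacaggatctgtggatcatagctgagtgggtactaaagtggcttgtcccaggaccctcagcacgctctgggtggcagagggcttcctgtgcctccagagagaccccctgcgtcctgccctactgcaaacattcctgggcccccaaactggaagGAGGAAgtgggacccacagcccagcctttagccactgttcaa
Ctsg: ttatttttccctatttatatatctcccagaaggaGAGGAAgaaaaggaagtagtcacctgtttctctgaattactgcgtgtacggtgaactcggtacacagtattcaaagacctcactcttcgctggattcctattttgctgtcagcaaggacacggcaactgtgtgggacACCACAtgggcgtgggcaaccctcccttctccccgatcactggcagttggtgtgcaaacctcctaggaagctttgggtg
Slc16a3: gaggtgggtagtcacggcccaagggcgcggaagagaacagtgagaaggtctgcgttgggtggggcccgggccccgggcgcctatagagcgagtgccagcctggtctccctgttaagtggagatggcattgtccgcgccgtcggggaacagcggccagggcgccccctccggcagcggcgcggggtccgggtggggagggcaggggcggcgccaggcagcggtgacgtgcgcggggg
The 3 protease windows each hold 1 match to GAGGAA, and that of Ctsg also 1 to TGTGGT, on the opposite strand. They hold none to the C/EBP form, and those of Elane and Prtn3 none to TGTGGT. The window of Mpo is not shown. The Slc16a3 window holds none of the 3 patterns but 1 match to ACGTG, the core bound by hypoxia-inducible factors, which the protease windows lack. No 2 of the marked matches overlap. Among 27025 RefSeq promoters, windows of the same length and place hold GAGGAA in 17.5% (185 bases), 18.5% (197 bases) and 23.1% (250 bases). They hold TGTGGT in 10.7% (185 bases), 11.4% (197 bases) and 14.2% of cases (250 bases) and ACGTG in 15.6% (236 bases). The C/EBP form is in 30.8% (185 bases), 32.1% (197 bases) and 36.9% (250 bases). These matches describe the letters only, and no binding was measured.

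Other products of the primary granule list moved as Elane did. Plac8 read 261, 263, 250.1 and 256 CPM in control against 296, 311, 319 and 304 CPM in MCT4-KO (0.26 ± 0.042). Cst7, for cystatin F, an inhibitor of granule cathepsins, read 31.5, 29.6, 29.1 and 31.8 CPM in control against 34.1, 37.5, 39.7 and 36.5 CPM in MCT4-KO (0.28 ± 0.046). For both genes every MCT4-KO library was above every control. Hp, for the haemoglobin scavenger haptoglobin, stands in this list although mature neutrophils keep the protein in secondary granules, and read 40.8, 37.7, 32.7 and 38.9 CPM in control against 48.3, 49.9, 53.8 and 52.8 CPM in MCT4-KO (0.45 ± 0.057). Lyz2, the lysozyme gene of granulocytes and monocytes, read 78.2, 80.9, 67.0 and 72.1 CPM in control against 96.8, 104, 103 and 108 CPM in MCT4-KO (0.46 ± 0.056). Nkg7, for a membrane protein of cytolytic granules, was low, at 3.69, 2.95, 3.02 and 3.02 CPM in control against 4.04, 5.66, 5.33 and 5.52 CPM in MCT4-KO (0.70 ± 0.12, edgeR adjusted p = 7.90e-04). It also stands in the natural killer list, whose summed level ran from 4.03 to 5.28 CPM in control libraries and from 4.999 to 7.16 CPM in MCT4-KO libraries. Nkg7 was the only call among the 2 tested genes of that list, whose median change was 0.15. The other called members, Prss57, Gusb and Arsb, rose as well.

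**Figure D2:**
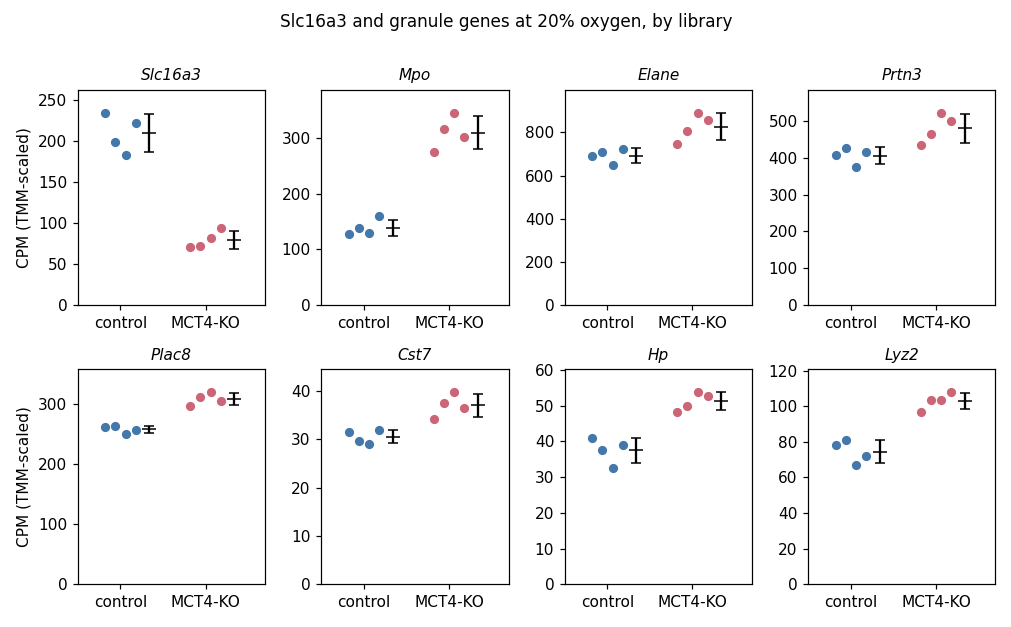
CPM (vertical axes, from 0) of Slc16a3 and 7 primary granule genes in each control (blue) and MCT4-KO (red) library at 20% oxygen, in replicate order, with the mean and 1 SD (n = 4) to the right of the points. Slc16a3 is lower and the 7 granule genes are higher in all 4 MCT4-KO libraries than in any control library. The granule genes were chosen among held calls whose groups did not overlap.

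The list of later granules was split. Of 27 tested genes of the secondary and tertiary granules 3 rose and 3 fell (22.2% called). Lcn2, for the iron-trapping protein lipocalin 2, read 90.9, 108, 105 and 81.5 CPM in control against 72.8, 66.5, 59.0 and 66.6 CPM in MCT4-KO and fell by 0.54 on the log2 scale (edgeR adjusted p = 6.39e-05). Padi4, for an enzyme that citrullinates histones in neutrophils, read 34.5, 34.1, 31.2 and 35.6 CPM in control against 27.9, 25.9, 26.3 and 29.7 CPM in MCT4-KO (-0.30 ± 0.047). Both genes' groups lay apart. Mmp8, the neutrophil collagenase (1.49 to 2.59 CPM), Pglyrp1, a peptidoglycan-binding granule protein (7.54 to 9.60 CPM), and Trem3, an activating receptor (5.28 to 8.46 CPM), rose by 0.79, 0.35 and 0.68. The third fall, Mmp9, was not held.

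Monocyte and macrophage markers were called in 16 of 44 tested, 11 higher and 5 lower, of which 8 and 4 were held. Ccr2, the chemokine receptor that brings monocytes out of the marrow, read 87.1, 76.2, 73.1 and 84.5 CPM in control against 91.3, 99.9, 110.3 and 111 CPM in MCT4-KO (0.36 ± 0.067, edgeR adjusted p = 0.00147). Clec12a, an inhibitory lectin receptor of myeloid cells, read 65.4, 58.8, 55.7 and 55.0 CPM in control against 70.9, 77.5, 79.0 and 79.0 CPM in MCT4-KO (0.39 ± 0.050). In neither did the groups overlap. Mpeg1, for the pore-forming protein perforin-2, rose from 4.94 to 7.72 CPM (0.65 ± 0.077) and Cd68, a lysosomal glycoprotein of macrophages, from 2.21 to 3.40 CPM (0.62 ± 0.12). F13a1, for the A chain of factor XIII, and Fn1, for fibronectin, rose from 2.67 to 4.81 CPM and from 0.663 to 1.61 CPM (0.86 and 1.28), both at low levels.

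Secreted products were among the markers that fell. Spp1, for osteopontin, a secreted phosphoprotein of macrophages, read 23.8, 19.3, 19.3 and 18.8 CPM in control against 12.2, 8.91, 9.34 and 12.5 CPM in MCT4-KO (-0.92 ± 0.11, edgeR adjusted p = 1.95e-05). Lgals3, for galectin 3, read 71.2, 74.0, 64.8 and 64.7 CPM in control against 42.7, 42.0, 41.7 and 45.6 CPM in MCT4-KO (-0.68 ± 0.052). The groups of both were well apart. Vcan, for the matrix proteoglycan versican, fell from 5.10 to 3.12 CPM (-0.71), and Pld4, an endolysosomal nuclease gene on chromosome 12, from 188 to 160.0 CPM (-0.23). Itgam, the CD11b chain of the integrin Mac-1, read 278, 273, 282 and 296 CPM in control against 262, 261, 253 and 253 CPM in MCT4-KO (-0.13 ± 0.037). Its call was lost without control replicate 4 or MCT4-KO replicate 3 or 4 and with library-size scaling. The list thus held genes of the same lineage that moved in opposite directions.

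Stem and progenitor markers split too, with 8 of 33 higher and 6 lower (3 lower without MCT4-KO replicate 3), of which 5 and 3 were held. Flt3, the receptor kinase of early progenitors and dendritic precursors, read 30.1, 27.7, 28.8 and 29.2 CPM in control against 35.0, 32.2, 32.2 and 33.5 CPM in MCT4-KO (0.20 ± 0.049, edgeR adjusted p = 0.0122). Prom1, for the membrane protein CD133, read 7.50, 7.94, 8.23 and 8.66 CPM in control against 11.04, 11.8, 11.4 and 11.4 CPM in MCT4-KO (0.50 ± 0.064). No MCT4-KO library of either gene reached down to a control. Muc13, a membrane mucin of progenitors, rose from 148 to 176 CPM (0.25), Cd48, a partner of the receptor CD244, from 16.9 to 22.7 CPM (0.43) and Ctla2a from 1.46 to 2.65 CPM (0.86). Hopx, an atypical homeodomain gene, read 53.7, 51.0, 45.7 and 48.8 CPM in control against 34.8, 35.2, 39.1 and 40.1 CPM in MCT4-KO and fell by 0.42 on the log2 scale.

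Of 38 targets of MLL fusions 11 fell and 5 rose, and of these 6 and 4 were held; the falls numbered 7 without control replicate 3 and 6 without MCT4-KO replicate 3. Hoxa9, the homeobox gene on which MLL leukemias depend, read 451, 458, 452 and 434 CPM in the control libraries and 391, 380.2, 375 and 388 CPM in the MCT4-KO libraries (-0.23 ± 0.028, edgeR adjusted p = 2.48e-05). The groups were apart by more than the range within either. Hoxa10 read 449, 476, 477 and 457 CPM in control against 418, 396, 391 and 408 CPM in MCT4-KO, and Hoxa11 read 259, 264, 246 and 251 CPM in control against 242, 221, 225 and 234 CPM in MCT4-KO (-0.15 ± 0.032). Hoxa5 changed by -0.31 ± 0.059 and Hoxa7 by -0.29 ± 0.046, so 5 genes of the cluster fell in held calls. Meis1, the cofactor of Hoxa9, read 111, 117, 121 and 116 CPM in control against 104, 101, 97.8 and 101 CPM in MCT4-KO (-0.20 ± 0.050, edgeR adjusted p = 0.0132), a call lost without MCT4-KO replicate 3. Against this direction, Bcl2, the survival gene, rose from 38.4 to 44.4 CPM (0.21) and Gria3, a glutamate receptor subunit gene, from 11.9 to 17.1 CPM (0.53).

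Next came the factors that set myeloid fate. Spi1, for PU.1, read 198, 204, 192 and 196 CPM in control against 197, 199, 199.6 and 199 CPM in MCT4-KO (0.01 ± 0.029), and Cebpa read 581, 584, 543 and 555 CPM in control against 596, 533, 541 and 588 CPM in MCT4-KO (-0.00 ± 0.041), neither called (edgeR adjusted p = 0.904 and 0.98). For both the groups overlapped throughout. Of 90 tested myeloid transcription factors (16.7% called) 7 rose (4 without control replicate 3) and 8 fell (5 without control replicate 3 or MCT4-KO replicate 2, 4 without MCT4-KO replicate 3), and 2 and 3 were held. The held falls were Vdr, the vitamin D receptor gene (12.7 to 9.95 CPM, -0.35), Klf2, a Krüppel-like factor of quiescence (7.46 to 5.88 CPM, -0.35), and the stress factor gene Atf3 (21.4 to 16.4 CPM, -0.39). E2f1, a driver of the cell cycle, rose from 26.4 to 31.2 CPM (0.24). In the erythroid and megakaryocyte list Zfpm1, for the GATA partner FOG1, rose (0.41 ± 0.070) and Nfe2 fell (-0.14 ± 0.028), the held calls among 23 tested genes. Of 20 dendritic cell markers 5 rose (2 without control replicate 3 or MCT4-KO replicate 3, 3 without MCT4-KO replicate 2), of which Flt3 is described above, and 1 fell (H2-Ab1, lost without replicate 1 or 2 of either genotype or MCT4-KO replicate 3).

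Receptors of the medium's cytokines came next. Il3ra, the alpha chain of the interleukin 3 receptor, read 104, 110.1, 98.6 and 103 CPM in the control libraries and 92.7, 89.7, 90.5 and 93.8 CPM in the MCT4-KO libraries (-0.18 ± 0.034, edgeR adjusted p = 0.0015), and no MCT4-KO library reached the lowest control. Its signalling partner Csf2rb read 239, 235, 234 and 247 CPM in control against 249.8, 247, 246 and 252 CPM in MCT4-KO and Kit, the stem cell factor receptor, read 213, 200.04, 214 and 219 CPM in control against 219, 208, 199.7 and 209 CPM in MCT4-KO. Neither was called (0.06 ± 0.040 and -0.02 ± 0.039, edgeR adjusted p = 0.414 and 0.839). Of 33 tested cytokine receptors 3 rose and 1 fell (12.1% called, against 9.76% of all tested genes). Il17ra, the common chain of interleukin 17 receptors, rose from 81.8 to 96.8 CPM (0.24 ± 0.039). Among 16 tested TNF receptors Tnfrsf1b, the TNF receptor 2 gene, rose from 68.8 to 77.9 CPM (0.18 ± 0.035) as the single call (6.25%, and 2 calls without control replicate 1 or 3).

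Adhesion receptors were called in 12 of 52, with 9 higher and 3 lower (1 lower without MCT4-KO replicate 3), of which 7 and 1 were held (Itgam and Cd47 being the falls not held). Selplg, for the glycoprotein PSGL-1, with which leukocytes roll on vessel walls, read 121, 123, 109 and 116 CPM in control against 134, 137, 137 and 139.7 CPM in MCT4-KO (0.22 ± 0.039), and the lowest MCT4-KO library was above the highest control. Thy1, a small glycolipid-anchored surface protein, read 34.1, 28.7, 27.2 and 32.3 CPM in control against 44.8, 46.4, 51.5 and 49.9 CPM in MCT4-KO (0.66 ± 0.061, edgeR adjusted p = 1.02e-06). Thy1 also stands in the T-cell list, whose summed level ran from 65.4 to 72.9 CPM in control libraries and from 81.4 to 86.8 CPM in MCT4-KO libraries, while Cd3e, Cd4 and Cd2 were at 0. Of the 3 tested genes of that list Thy1 rose and 1 fell, a fall that was not held. Their median change was -0.14. Ly6e, of the same superfamily as Sca-1, rose from 156 to 190.2 CPM (0.29). The held fall was Itgb7, the beta 7 integrin chain, which read 61.8, 58.9, 61.6 and 65.2 CPM in control against 52.9, 52.5, 56.0 and 56.5 CPM in MCT4-KO (-0.18 ± 0.038).

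Tetraspanins, which organise receptors in the membrane, were called in 7 of 19 (36.8%), with 3 higher and 4 lower. Cd9 read 57.0, 58.1, 54.5 and 52.9 CPM in control against 42.7, 44.5, 44.6 and 46.8 CPM in MCT4-KO (-0.32 ± 0.045, edgeR adjusted p = 1.20e-04), and Cd53, of all leukocytes, read 625, 601, 575 and 591 CPM in control against 532, 528, 535 and 555 CPM in MCT4-KO (-0.15 ± 0.030). Both stayed below the controls in every MCT4-KO library. Tspan2 rose from 4.69 to 7.05 CPM (0.59), at a low level. The others called were Tspan3 and Tspan14, which rose, and Tspan9 and Tspan17, which fell.

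**Figure D3:**
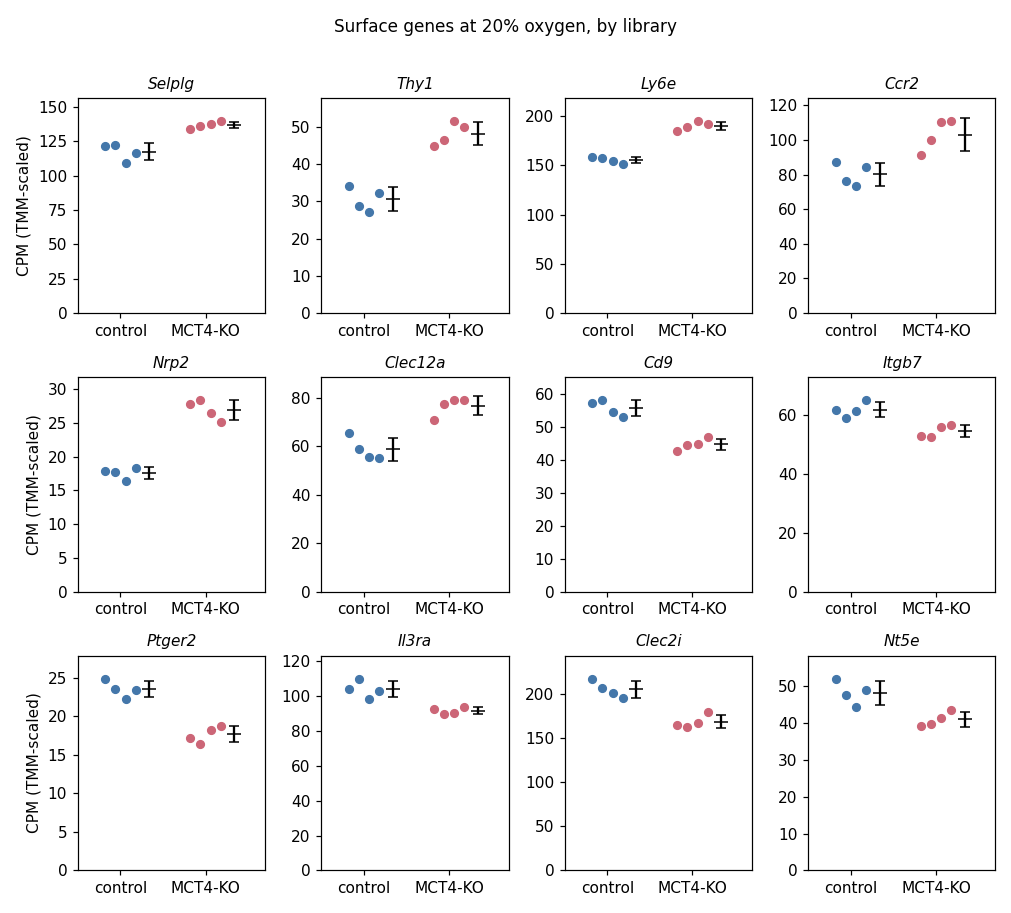
CPM (vertical axes, from 0) of 12 surface genes in each control (blue) and MCT4-KO (red) library at 20% oxygen, in replicate order, with the mean and 1 SD (n = 4) to the right. Selplg, Thy1, Ly6e, Ccr2, Nrp2 and Clec12a are higher and Cd9, Itgb7, Ptger2, Il3ra, Clec2i and Nt5e lower in all 4 MCT4-KO libraries than in any control library. All but Il3ra, named whatever its result, were chosen among held calls whose groups did not overlap.

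Among G-protein-coupled receptors outside the chemoattractant list 7 of 51 rose and 6 fell (25.5% called). Of the chemoattractant receptors 2 of 9 (22.2%) were called, Ccr2 and Ltb4r1, the leukotriene B4 receptor, which rose from 6.97 to 9.38 CPM (0.42 ± 0.096). The adhesion-type receptors Adgrl4, Adgrd1 and Adgrl2 rose by 1.25, 0.87 and 0.44, the first pair at means under 5 CPM. Receptors of small mediators moved both ways. P2ry2, which senses extracellular ATP and UTP, read 23.8, 25.7, 22.4 and 25.2 CPM in control against 29.3, 29.4, 29.999 and 30.2 CPM in MCT4-KO (0.29 ± 0.052), and S1pr3, a receptor of sphingosine 1-phosphate, read 20.0, 20.0, 21.6 and 20.0 CPM in control against 26.2, 24.1, 24.1 and 24.5 CPM in MCT4-KO (0.28 ± 0.049). Ptger2, which couples prostaglandin E2 to cAMP, read 24.9, 23.6, 22.3 and 23.4 CPM in control against 17.3, 16.4, 18.3 and 18.8 CPM in MCT4-KO and fell by 0.41 on the log2 scale (edgeR adjusted p = 1.73e-04). Hcar2, the niacin and hydroxybutyrate receptor, fell from 4.52 to 2.77 CPM (-0.71) and the Wnt receptor gene Fzd1 from 25.1 to 20.1 CPM (-0.32). Ptgs1, the cyclooxygenase that begins prostaglandin synthesis, which stands in none of the lists, read 11.2, 11.5, 11.8 and 12.95 CPM in control against 17.9, 19.8, 20.7 and 18.4 CPM in MCT4-KO (0.69 ± 0.055).

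Innate immune receptors moved both ways. Pattern recognition genes rose in 4 of 35 (Clec12a, Cd180, Irak4 and Nlrc4) and fell in 1, with 14.3% called against 9.76% of all tested genes. Cd180, a toll-like receptor homolog, rose from 1.25 to 2.35 CPM (0.91), Irak4, a kinase downstream of toll-like receptors, from 25.9 to 30.1 CPM (0.21), and Ifih1, the cytosolic RNA sensor MDA5, fell from 93.0 to 81.8 CPM (-0.18). Fc and paired receptors rose in 5 of 43 (Igsf6, Trem3, Fcgr2b, Pilra and Milr1) and fell in 4 (Clec2i, Tyrobp, Fcgrt and Lilrb4a), with 2 falls left without control replicate 1 or MCT4-KO replicate 1, 2 or 3. Clec2i, a C-type lectin ligand of natural killer receptors, read 218, 207, 202 and 196 CPM in control against 166, 163, 167 and 179.8 CPM in MCT4-KO (-0.28 ± 0.037, edgeR adjusted p = 5.27e-05). Igsf6, an immunoglobulin-type receptor, read 4.88, 5.68, 5.02 and 5.60 CPM in control against 8.39, 8.02, 9.04 and 8.17 CPM in MCT4-KO (0.66 ± 0.080). The inhibitory receptor genes Fcgr2b and Pilra rose by 0.17 and 0.54. Of 21 scavenger and phagocytic receptors 6 rose, 4 of them in held calls: Scarb2, the lysosomal receptor LIMP-2 (23.2 to 28.0 CPM, 0.28), Lrp8, a receptor of reelin and apolipoprotein E (19.5 to 22.8 CPM, 0.23), Cd68 and Stab2, a hyaluronan scavenger receptor (0.472 to 1.14 CPM, 1.24).

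Genes that other immune cells read on leukemia cells were mixed. Of 31 co-stimulatory and co-inhibitory genes 3 rose (5 without control replicate 1) and 5 fell (3 without control replicate 1 or 2, 2 without MCT4-KO replicate 2). The falls were Nt5e, Lgals3, Pvr, Cd47 and Tnfsf9. Lgals9, for galectin 9, a ligand of TIM-3, read 142, 147, 142 and 143 CPM in control against 160.1, 165, 166 and 167 CPM in MCT4-KO (0.19 ± 0.040). Ulbp1, a stress ligand of NKG2D, read 16.6, 17.1, 18.6 and 19.9 CPM in control against 22.04, 22.03, 22.02 and 21.6 CPM in MCT4-KO (0.28 ± 0.068), and Cd52 rose from 5.40 to 7.29 CPM (0.43). Nt5e, for CD73, which makes adenosine outside the cell, read 52.1, 47.7, 44.3 and 49.0 CPM in control against 39.3, 39.9, 41.3 and 43.7 CPM in MCT4-KO and fell by 0.23 on the log2 scale. Every MCT4-KO library of these genes lay on one side of all controls, which was a condition for naming them. In the MHC class I path 5 of 26 fell (3 without MCT4-KO replicate 3) and 1 rose (3 without control replicate 4, 2 without control replicate 1 or MCT4-KO replicate 2). The rise was the loading-complex gene Pdia3, and the falls were H2-D1, H2-Q4, H2-Q6, H2-Q7 and H2-Q10, near-identical genes whose reads may have been divided wrongly. H2-Q4 changed by -0.29 ± 0.057 and H2-Q7, at 2.63 to 1.35 CPM, by -0.94 ± 0.18. In the class II path H2-DMb1, a peptide-loading chain, rose from 21.5 to 26.1 CPM (0.28) as the held call among 17 tested genes (11.8% called, against 9.76% of all tested genes).

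Guidance receptors, known from axons and also carried by leukocytes, rose in 4 of 23 and fell in 2 (26.1% called). Nrp2, a co-receptor of semaphorins and VEGF-C, read 17.9, 17.7, 16.4 and 18.3 CPM in the control libraries and 27.9, 28.4, 26.5 and 25.1 CPM in the MCT4-KO libraries (0.62 ± 0.055, edgeR adjusted p = 4.52e-07). Its groups lay apart by several times their SD. Sema4b rose too, and Plxnd1 from 166 to 188 CPM (0.18) and Sema4a from 68.0 to 77.0 CPM (0.18). Neither of the falls, Plxnc1 and Unc5b, was held, and their count was 1 without control replicate 2 or MCT4-KO replicate 2, 3 or 4, and Plxnc1 and Unc5b were both lost without control replicate 3.

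Of 41 secreted cytokines and chemokines 3 rose and 6 fell (2 without control replicate 1 or 3, 3 without MCT4-KO replicate 3). Hgf, the ligand of the receptor Met, read 43.9, 41.7, 41.2 and 43.7 CPM in control against 34.1, 33.0, 32.3 and 34.6 CPM in MCT4-KO (-0.35 ± 0.047, edgeR adjusted p = 7.11e-05). Il16, a chemoattractant released from a precursor, read 57.4, 62.3, 60.8 and 65.2 CPM in control against 70.8, 72.2, 78.5 and 74.2 CPM in MCT4-KO (0.27 ± 0.051). The 4 MCT4-KO libraries were below all controls for Hgf and above them for Il16. Nrg1, a ligand of ERBB receptors, rose from 1.62 to 2.598 CPM (0.68), and the third rise was in Gdf11. Extracellular proteases and their inhibitors were called in 15 of 41 (36.6%), 9 higher and 6 lower (3 lower without MCT4-KO replicate 3). Serpinb2, for plasminogen activator inhibitor 2, read 35.4, 36.6, 35.4 and 36.8 CPM in control against 21.7, 16.9, 15.5 and 24.2 CPM in MCT4-KO (-0.88 ± 0.10, edgeR adjusted p = 1.38e-05); its exons overlap those of Serpinb10. Plaur, the urokinase receptor gene, read 42.1, 40.7, 35.3 and 37.8 CPM in control against 34.0, 30.3, 32.3 and 33.3 CPM in MCT4-KO (-0.27 ± 0.059). Each of these plasminogen system genes was lower in every MCT4-KO library. F7, for coagulation factor VII, rose from 3.48 to 6.03 CPM (0.79), Spint2, an inhibitor of membrane serine proteases, from 50.8 to 62.0 CPM (0.29), and Adam15, a membrane metalloprotease, from 60.5 to 68.6 CPM (0.18).

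Signalling genes were called at 13.9%, nearer to the background of 9.76% than the other groups. In the list of PI3K, Akt and FoxO genes 6 of 43 rose (3 without control replicate 1 or MCT4-KO replicate 3) and 2 fell (4 without MCT4-KO replicate 1, 1 without control replicate 1 or MCT4-KO replicate 3 or 4). Pik3cd, the leukocyte catalytic subunit, read 91.0, 86.3, 89.3 and 92.3 CPM in control against 104, 102, 103 and 102 CPM in MCT4-KO (0.19 ± 0.032, edgeR adjusted p = 5.24e-04), and Pik3cb read 48.0, 46.9, 49.1 and 53.3 CPM in control against 57.2, 56.9, 56.7 and 55.0 CPM in MCT4-KO (0.19 ± 0.041). The ranges of the groups were apart in both. The falls were Klf2, given above, and Foxo1. Grb10, an adaptor that restrains insulin receptor signalling, was low and read 1.71, 1.34, 1.33 and 1.64 CPM in control against 4.09, 4.25, 3.57 and 3.10 CPM in MCT4-KO (1.31 ± 0.13, edgeR adjusted p = 3.26e-06).

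Ras and MAPK genes had 1 of 46 higher (2 without control replicate 4) and 5 lower. The falls numbered 3 without control replicate 1, control replicate 3 or MCT4-KO replicate 3, and 2 without MCT4-KO replicate 2. The share called was 13.04%, against 9.76% of all tested genes. The rise was Rasa3, a GTPase-activating protein of Ras and Rap, which read 146, 146, 149.5 and 160.2 CPM in control against 173, 170.4, 178 and 172 CPM in MCT4-KO (0.21 ± 0.036). The held fall was Rasgrp4, a Ras exchange factor of myeloid and mast cells, at 32.0, 33.5, 32.3 and 31.0 CPM in control against 29.9, 28.5, 27.4 and 27.6 CPM in MCT4-KO (-0.18 ± 0.041). The other falls, Spry4, Fosl1, Egr2 and Map2k1, were not held. The groups of Rasa3 and of Rasgrp4 did not overlap. Spry4 is, like Rasa3, known as a brake on Ras signalling, but Spry4 fell where Rasa3 rose. What these calls mean for Ras signalling was not tested.

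Kinases, phosphatases and adaptors of the Src and Syk pathways rose in 7 of 63 and fell in 5 (3 without MCT4-KO replicate 3). The receptor phosphatase genes Ptpre and Ptprj read 74.7, 74.7, 72.9 and 75.7 CPM in control against 92.1, 88.2, 87.2 and 84.1 CPM in MCT4-KO and 7.62, 8.71, 7.47 and 7.76 CPM in control against 11.5, 10.9, 9.89 and 9.55 CPM in MCT4-KO, and changed by 0.24 ± 0.040 and 0.40 ± 0.079. Skap2, an adaptor of integrin signalling, read 351, 357, 341 and 339 CPM in control against 297, 301, 299 and 302 CPM in MCT4-KO (-0.21 ± 0.029, edgeR adjusted p = 9.17e-05). Fyn, a Src-family kinase, fell from 60.4 to 52.99 CPM (-0.19) and Cd2ap, an actin-linked scaffold, from 104 to 89.8 CPM (-0.22), while the adaptor gene Stap1 rose (0.23). Tec and Ptk2 were the other falls. Tns1, for tensin 1, which ties integrins to actin, read 6.86, 6.02, 8.003 and 7.54 CPM in control against 13.996, 13.6, 13.2 and 12.4 CPM in MCT4-KO (0.91 ± 0.093, edgeR adjusted p = 3.46e-06), the largest rise after Mpo under the same limits.

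In the list of G proteins, cAMP and calcium 9 of 81 rose and 5 fell. Grk2, a kinase that desensitises receptors, read 377, 377, 379 and 379 CPM in control against 429.9, 420.1, 411 and 414 CPM in MCT4-KO (0.15 ± 0.026). Pde3b, a phosphodiesterase of cAMP, read 556, 546, 552 and 558 CPM in control against 507, 483, 465 and 482 CPM in MCT4-KO (-0.19 ± 0.031, edgeR adjusted p = 4.99e-04). Trpv2, a calcium channel of leukocytes, fell from 124 to 109 CPM (-0.19) and the G protein gamma subunit gene Gng10 from 165 to 137 CPM (-0.27), whereas Gna15, a blood-cell alpha subunit, rose from 14.4 to 17.2 CPM (0.26). Adcy3 and Atp2a2 were the other falls. Tiam1, an exchange factor of Rac, read 46.2, 43.4, 43.2 and 49.2 CPM in control against 64.5, 59.4, 57.6 and 58.4 CPM in MCT4-KO (0.40 ± 0.046, edgeR adjusted p = 1.38e-05), and Arhgap4, whose exons overlap those of L1cam and Naa10, read 19.3, 19.6, 18.7 and 19.9 CPM in control against 25.1, 25.4, 28.1 and 26.1 CPM in MCT4-KO (0.44 ± 0.051). In both the groups did not overlap. Cdc42ep3, an effector of Cdc42, rose (0.35). Rhoj and Rhob fell (-0.20 and -0.17), both on chromosome 12.

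Of 30 TGF-beta and BMP genes (13.3% called) 2 rose (1 without control replicate 2 or MCT4-KO replicate 1 or 2) and 2 fell (1 without control replicate 1, 3 or 4, and without replicate 2 or 3 of MCT4-KO). The receptor gene Tgfbr2 read 37.7, 35.9, 33.3 and 39.6 CPM in control against 44.0, 43.7, 45.0 and 41.9 CPM in MCT4-KO (0.25 ± 0.049), and Ltbp4, which tethers latent TGF-beta to the matrix, fell from 1.87 to 0.887 CPM (-1.07). The other calls were Tgfbr3, higher, and Bmpr2, lower. Of 49 Wnt, Hippo, Hedgehog and Notch genes (14.3% called) 5 rose (3 without replicate 1 or 2 of either genotype) and 2 fell. Amotl1, an angiomotin that binds the Hippo effector YAP, read 63.2, 61.7, 63.9 and 65.2 CPM in the control libraries and 46.7, 44.4, 41.1 and 42.6 CPM in the MCT4-KO libraries (-0.54 ± 0.050, edgeR adjusted p = 8.28e-07), and its groups lay far apart. The co-repressor gene Tle1 fell (-0.30), and the Notch glycosyltransferase gene Lfng and the Wnt co-receptor gene Lrp5 rose (0.35 and 0.21), as did Kremen1, Amotl2 and Sufu. JAK-STAT genes rose in 4 of 35 and fell in 2 (17.1% called; 1 lower without MCT4-KO replicate 3), but none of the 4 rises (Tyk2, Stat5a, Stat5b and Ptpn11) was called without replicate 1 of either genotype or control replicate 2. Interferon response genes were called in 6 of 62 (9.68%), p53 targets in 3 of 39 (7.69%) and NF-kB genes in 1 of 39 (2.56%, Relb), shares near or below the background. The 4 interferon rises numbered 1 without control replicate 4 or MCT4-KO replicate 3 and 2 without any other library but MCT4-KO replicate 1 or 2. The 2 interferon falls numbered 1 without replicate 3 of either genotype and 0 without MCT4-KO replicate 2. Without replicate 3 of either genotype or MCT4-KO replicate 4 the 2 p53 rises numbered 1, and without control replicate 1 the p53 falls numbered 2. The NF-kB fall was lost without 6 of the 8 libraries (all but control replicate 3, which gave 2 falls, and MCT4-KO replicate 2). The held calls of these lists were Gbp7, an interferon-induced GTPase (0.22 ± 0.048), Zmat3, and Rrm2b, a ribonucleotide reductase subunit under p53, which read 136, 142, 154 and 132 CPM in control against 117, 102, 87.8 and 98.5 CPM in MCT4-KO (-0.47 ± 0.065).

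**Figure D4:**
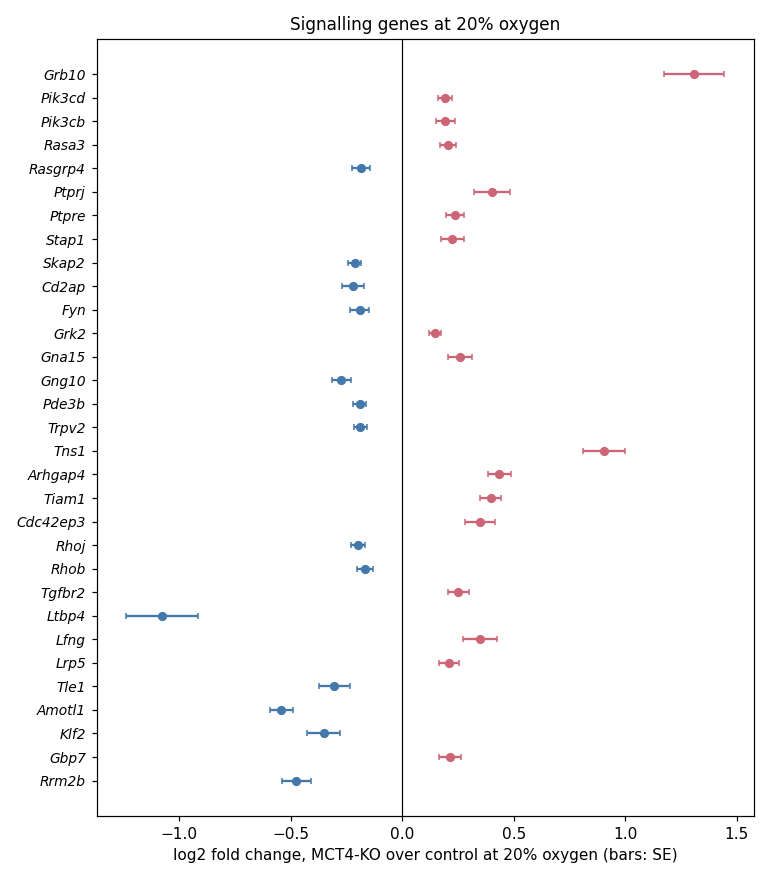
Log2 fold change (horizontal axis) of MCT4-KO over control at 20% oxygen for the 31 signalling genes called and given with values, Slc16a3 left out, with bars of 1 SE; red points rose and blue points fell. Grb10 (1.31) and Ltbp4 (-1.07), both at low levels, lie furthest out, Tns1 follows at 0.91, and the other points lie from -0.54 (Amotl1) to 0.44 (Arhgap4).

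Several of the largest changes were in genes outside the lists. Slc39a3, a zinc importer gene, read 29.6, 31.2, 27.6 and 28.2 CPM in the control libraries and 16.9, 14.9, 17.2 and 15.9 CPM in the MCT4-KO libraries (-0.85 ± 0.050, edgeR adjusted p = 1.70e-09). Mcur1, a regulator of the mitochondrial calcium uniporter, read 158, 159.6, 168 and 163 CPM in the control libraries and 104, 97.4, 94.3 and 98.0 CPM in the MCT4-KO libraries (-0.72 ± 0.035, edgeR adjusted p = 1.22e-10). Both genes' MCT4-KO libraries stood well below every control. Skida1 fell from 45.3 to 27.8 CPM (-0.70), Sbf2, a myotubularin-related gene, from 12.2 to 7.57 CPM (-0.70), Mb21d2 from 8.70 to 5.41 CPM (-0.69), Cp, for ceruloplasmin, from 26.7 to 16.9 CPM (-0.67) and Serpinb9g from 7.55 to 4.78 CPM (-0.66). Among the rises were Nebl, an actin-binding nebulin relative (30.9 to 48.9 CPM, 0.66), Pmp22, a tetraspan membrane protein (10.7 to 19.5 CPM, 0.86), BC035044 (25.1 to 43.5 CPM, 0.79), Oaf (4.69 to 8.06 CPM, 0.78) and the matricellular gene Ccn3 (8.04 to 13.1 CPM, 0.70).

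On the scale of transcripts rather than folds, the largest held gains included Hspa8, a constitutive chaperone (1080.3 to 1218 CPM), Mlec, which binds glycans in the endoplasmic reticulum (505 to 590.2 CPM), Shmt2, of mitochondrial serine breakdown (344 to 405 CPM), the hexokinase gene Hk3 (225 to 276 CPM) and Cyfip2, of the actin-regulating WAVE complex (149 to 199.7 CPM). The largest held losses included the glycolytic genes Eno1 (2325 to 1999 CPM) and Pgk1 (941 to 736 CPM), the autophagy receptor gene Sqstm1 (856 to 712 CPM), App (1127 to 986 CPM), the oxidase gene Ero1l (933 to 821 CPM) and 3 genes on chromosome 12, Odc1 of polyamine synthesis (1278 to 1052 CPM), the fucosyltransferase gene Fut8 (1388 to 1194 CPM) and the initiation factor gene Eif5 (1046 to 899 CPM). Their log2 changes were modest, from 0.17 for Hspa8 to 0.42 for Cyfip2 among the gains and from -0.18 for Ero1l to -0.35 for Pgk1 among the losses. Eno1 and Hspa8 have near-identical copies and are uncertain.

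Some library-wide quantities moved with the genotype. On chromosome 12, 104 of 523 tested genes fell and 9 rose, with a median change of -0.11 against -0.020 to 0.012 on the other chromosomes. That shift was present in each of 12 bins of 10 Mb along the chromosome and in all 8 libraries, where the median deviation was 0.041 to 0.052 on the log2 scale in controls and -0.053 to -0.028 in MCT4-KO. Copy number was not measured. Falls on that chromosome included those of Pld4, Rhoj, Rhob, Odc1, Fut8 and Eif5, and the part of the shift in them was not tested. Other named falls lie there too. Leaving chromosome 12 out, a step chosen after seeing the data, left 674 higher and 557 lower genes, with 11 of 22 primary granule genes higher and 10 of 37 MLL fusion targets lower. Of 9 nuclear-retained and structured RNAs 5 fell (Malat1, Gas5, Snhg12, Neat1 and Rn7sk). Neat1 read 27.6, 28.4, 37.7 and 29.9 CPM in control against 17.1, 17.5, 20.3 and 23.2 CPM in MCT4-KO, and Rn7sk, the 7SK RNA that restrains elongation, changed from 7.88 to 4.94 CPM. Of 15 mitochondrially encoded genes mt-Nd3 rose (67.5 to 96.7 CPM, 0.52 ± 0.089). The part of RNA quality or poly(A) selection in these values was not tested.

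Where the knockout effect at 20% oxygen stood against that at 2% was tested directly, as the difference of the effects. At 2% oxygen 5295 genes (38.4%) were called between MCT4-KO and control, and the difference between the effects was called for 3155 (22.9%). Of the 1344 genes called at 20%, 913 (67.9%) had the same sign at 2%, 576 were called there with the same sign (42.9% of the 1344 and 10.9% of the 5295) and 171 with the opposite sign. The difference was called for 550 (40.9%) of them. These genes were picked by their change at 20%, which is part of the difference, so that share cannot be set against 22.9%.

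Granule genes were among those whose rise at 20% oxygen was larger than at 2%. Most named genes were chosen by their change at 20%, which enters the difference, and this favours larger changes at 20%. Mpo rose at both levels, by 1.16 at 20% and by 0.43 ± 0.072 at 2% (difference 0.73 ± 0.10, edgeR adjusted p = 6.75e-05). Elane (-0.06 ± 0.046 at 2%), Plac8 (0.00 ± 0.042) and Hp (-0.01 ± 0.053) were not called at 2%, and their differences were 0.32, 0.25 and 0.45 (edgeR adjusted p = 0.0016, 0.0047 and 3.54e-04). Prtn3 and Cst7, which rose at 20%, fell at 2% (-0.16 ± 0.047 and -0.32 ± 0.039; differences 0.40 and 0.60). For Lyz2 the difference was not called (0.21 ± 0.081, edgeR adjusted p = 0.0668). Of the surface genes, Selplg changed by -0.00 ± 0.036 at 2%, which was not called, with a called difference of 0.23. Flt3, Igsf6 and Adgrd1 rose at 20% and fell at 2% (-0.31 ± 0.053, -0.48 ± 0.070 and -0.38 ± 0.083; differences 0.50, 1.15 and 1.24).

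Among the genes that fell at 20% oxygen, Hgf, Fyn, Odc1 and Neat1 rose at 2% (0.24 ± 0.072, 0.36 ± 0.051, 0.20 ± 0.053 and 0.40 ± 0.10; differences -0.58, -0.55, -0.48 and -1.06). Amotl1 and Lcn2 were not called at 2% (-0.08 ± 0.057 and 0.06 ± 0.080), with called differences of -0.46 and -0.60. No difference between the levels was called for Thy1 (-0.08 ± 0.082), Nrp2 (-0.04 ± 0.085), Mpeg1 (-0.08 ± 0.11), Slc39a3 (-0.12 ± 0.072), Mcur1 (-0.08 ± 0.050), Hoxa9 (-0.07 ± 0.040), Il3ra (0.07 ± 0.047) or Slc16a3 (-0.24 ± 0.10; edgeR adjusted p = 0.104). A difference that was not called is not shown to be absent.

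**Figure D5:**
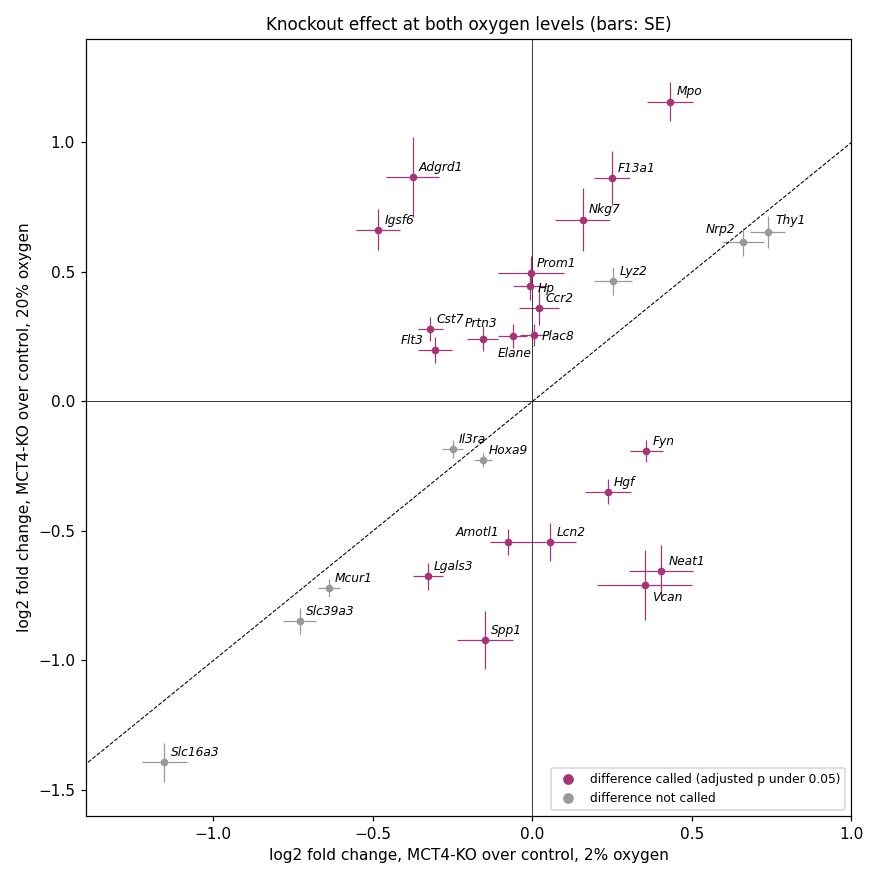
Log2 fold change of MCT4-KO over control at 20% oxygen (vertical axis) against that at 2% oxygen (horizontal axis) for genes named in the text, with bars of 1 SE and a dashed line where the effects are equal. Purple points, such as Mpo, Hp and Lcn2, differ between the levels at an edgeR adjusted p under 0.05, and grey points, such as Slc16a3, Mcur1, Thy1 and Nrp2, were not called different. Most of these genes were chosen by their change at 20% oxygen, which enters the difference.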

How the data were processed

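Per the labels' protocols, column-purified total RNA was enriched for poly(A) and made into libraries using NEBNext kits. In 1 table of 53801 Ensembl genes the authors deposited expected counts. HISAT2, RSEM and mm10 were used, per the submitters' processing notes; neither versions nor annotation nor strand setting is given in the sources used here. Fractional values (10.1% of all) were rounded. Exon overlaps with other genes are not limited to those named with Prtn3, Serpinb2 and Arhgap4. Irak4 overlaps Twf1, Cp Hps3, Sqstm1 Mrnip, Cd180 Mast4, Hk3 Unc5a, Shmt2 Ndufa4l2, Cd52 Crybg2 and Pilra Zcwpw1, among others. Reads of such genes carry the same doubt. Symbols and positions come from GENCODE vM21 (GRCm38), which matched 53706 genes, and promoters from RefSeq (GRCm38.p6), which has an entry for each of the 4 genes shown.

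Genes were kept by filterByExpr of edgeR 4.0.16 (R 4.3.3), so that 13774 genes holding 99.9% of counts remained, with TMM scaling. The 16 libraries were fitted together in a negative binomial model of 4 group means (biological coefficient of variation 4.61%, 12 residual degrees of freedom). Contrasts were tested with the quasi-likelihood F-test and adjusted by Benjamini-Hochberg over all tested genes. SE is the size of the log2 change divided by the square root of F. A count of 0 allows up to 3 counts, on average 0.118 CPM, for counting error only. The test was checked on simulated counts.

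Members and the 45 gene lists were chosen with earlier results of these data known, and no list was tested as a set. The rule for named genes took 12 fixed genes, the 10 neighbours of Slc16a3 and, among held calls without overlap between the groups, the 12 largest rises and falls in log2 (mean of at least 5 CPM), the 10 largest in CPM and up to 6 members per list and direction. Members named without a value, to account for a small count, and Ctsg lie outside it and were chosen after their values were seen. Some genes the rule takes are not reported here. Alternatives were DESeq2 1.42.0 (size factors and Wald test), library-size scaling, no filter, a filter of 1 CPM in 8 libraries, limma-voom (limma 3.58.1), the 8 libraries alone, a replicate block, each library left out in turn, and testing against a fold of 1.5.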

Additional observations from a re-analysis of the deposited data

Results flagged for a closer look

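Within groups, 13 of 336 sets of 4 libraries of the named genes had 1 library far from the other 3 (its gap to the nearest, over the whole range, passed Dixon's 95% critical value), where chance gives about 1 in 20. Below the others lay MCT4-KO replicate 1 for Oaf (7.39 CPM, the others 8.27 to 8.32), MCT4-KO replicate 4 for Vdr (8.69, the others 10.3 to 10.4), for Ulbp1 (21.6, the others 22.02 to 22.04) and for Hexdc (7.98, the others 8.52 to 8.61), control replicate 4 for Fyn (58.7, the others 60.9 to 61.3) and control replicate 1 for Gna15 (13.8, the others 14.6 to 14.7). Above the others lay control replicate 1 for Spp1 (23.8 CPM, the others 18.8 to 19.3) and Nkg7 (3.69, the others 2.95 to 3.02), control replicate 3 for Mpeg1 (5.56, the others 4.70 to 4.76) and S1pr3 (21.6, the others 19.95 to 20.03), MCT4-KO replicate 1 for Mlec (609.7, the others 582 to 587) and Zfpm1 (25.2, the others 20.6 to 21.2), and MCT4-KO replicate 2 for Ifih1 (84.4, the others 80.95 to 81.01).

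For 74 of 168 named genes the knockout effect differed between the oxygen levels (edgeR interaction test, adjusted p under 0.05). Over all 13774 tested genes it did for 3155 (22.9%). Most named genes were chosen by their change at 20%, which is part of the difference, so the counts are not alike. Values are the log2 effect at 20% minus that at 2% oxygen. Among granule and monocyte genes they were 0.73 for Mpo, 0.32 for Elane, 0.40 for Prtn3, 0.60 for Cst7, 0.54 for Nkg7, 0.45 for Hp, 0.25 for Plac8, -0.60 for Lcn2, 0.55 for Pglyrp1, 0.48 for Trem3, 0.34 for Ccr2, 0.61 for F13a1, 0.41 for Cd68, -1.06 for Vcan, -0.77 for Spp1, -0.35 for Lgals3 and 0.17 for Itgam. In stem cell genes, MLL targets and transcription factors they were 0.50 for Flt3, 0.30 for Cd48, 0.50 for Prom1, 0.19 for Muc13, -0.28 for Hopx, 0.16 for Hoxa11, and -0.44 for Klf2.

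For other surface and secreted products the differences were 0.23 for Selplg, 0.15 for Itgb7, -0.18 for Cd9, -0.15 for Cd53, 1.24 for Adgrd1, 1.15 for Igsf6, -0.31 for Clec2i, 0.24 for Lgals9, 0.39 for Cd52, 0.19 for Sema4a, -0.58 for Hgf, 0.30 for Il16 and 0.74 for Nrg1. Signalling genes gave 0.58 for Tns1, 0.26 for Ptpre, -0.35 for Cd2ap, -0.55 for Fyn, 0.22 for Grk2, 0.30 for Tiam1, 0.46 for Cdc42ep3, 0.17 for Rhoj, -0.24 for Rhob, 0.18 for Pik3cd, 0.25 for Rasa3, 0.20 for Rasgrp4, 0.32 for Tgfbr2, -1.09 for Ltbp4, -0.46 for Amotl1, 0.29 for Gbp7 and -0.56 for Rrm2b. The remaining values were -0.43 for Skida1, 0.39 for Pmp22, 1.17 for BC035044, 0.54 for Ptgs1, 0.28 for Nebl, 0.25 for Mlec, 0.16 for Hk3, -0.94 for Rn7sk, -1.06 for Neat1, -0.91 for Cp, -0.18 for Eno1, -0.48 for Odc1, -0.13 for Fut8 and 0.41 for mt-Nd3. They were -0.55 for Slc16a1, and near Slc16a3 0.61 for Ccdc57, 0.32 for Ogfod3, 0.36 for Cybc1, 0.22 for Narf and -0.21 for Gps1.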

How the results depend on the processing

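The count of 1344 called genes was 1027 to 1432 with DESeq2 size factors, library-size scaling, no filter, the stricter filter, DESeq2's Wald test, limma-voom or the 8 libraries alone, and 13 with a minimum fold of 1.5. Leaving out 1 library gave 895 (without MCT4-KO replicate 2) to 1321 called genes. Genes outside chromosome 12, counted after seeing the data, gave 1231. Of the 153 called genes given with values none reversed; members named only to account for a count are not among them. Of these 153, 152 or 153 kept their call in these fits over all 8 libraries, except that 5 did with the minimum fold, and 150 to 153 did without 1 library. Most of the 153 were named because their calls were held, so their result in the fits that define a held call was fixed in advance. Over all genes 667 of the 1344 calls were held. The count of 3155 called differences between oxygen levels was 2114 to 3215 under the alternatives run for it, and Slc16a3 was called lower under each of its own. The cause of the lower count without MCT4-KO replicate 2 was not tested. Same-numbered libraries did not deviate together (correlations -0.0120 to -0.0057, against -0.070 to 0.095 for other pairs), and no library correlated best with its own number. These correlations cannot show whether same-numbered libraries were grown or prepared together, which the labels do not state. The main fit did not pair them. With a replicate block 728 genes were called, and 150 of the 153 kept their call. The membrane-segment share planned for called genes was not run. Depth limits genes at or below 1 CPM, of which 2.90% were called.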
